A study of Mus musculus with 29 samples.

Results

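Of 11 mouse liver libraries taken at 5 months of age, 3 carried a high level of Ly6d, a gene otherwise high in the adenomas of the same study, and these 3 were set against the 7 adenoma libraries of 10 months. The 10 libraries come from a series of 29. A 5-month library was chosen where Ly6d, which encodes a small lipid-anchored surface protein, lay above 50 CPM (read counts relative to the scaled total of their library). The 3 were selected on these values: VEH replicate 4 was at 72.9 CPM, VEH replicate 6 at 123 CPM and TBT replicate 4 at 94.97 CPM, while the next 5-month library below the threshold was at 8.09 CPM. Ly6d chose these libraries, so its values are a description and support nothing. Genes that move together with Ly6d were chosen with it in part, so likeness to the adenomas is described and not tested.

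The series asked whether developmental exposure to tributyltin (TBT), an organotin that activates the nuclear receptors RXR and PPARG, leaves differences in the adult liver of male mice. Dams took TBT in drinking water through gestation and lactation, and the arm labelled VEH was taken as the control. The 5-month animals gave 6 VEH and 5 TBT liver libraries. At 10 months the same tissue gave 6 VEH and 5 TBT libraries, and adenomas, which are benign tumours of hepatocytes, gave 7 more, each labelled TBT. The Ly6d-high livers are thus 2 VEH livers and 1 TBT liver of 5 months, and the comparison group is 7 TBT adenomas of 10 months. Age, exposure and the label of the tissue differ together between these groups and cannot be told apart. The labels used here give neither strain and genotype nor whether each library is 1 animal, so p-values rest on a spread between libraries that may be technical. The labels name the 3 libraries liver and say nothing of a lesion in them.

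Hepatocytes supply most of the proteins of blood plasma and hold the enzymes that break down hormones, bile acids and foreign compounds. During inflammation they raise a set of secreted proteins, the acute phase response, and the metal-binding metallothioneins with it. Liver tumours of mice keep part of the hepatocyte programme and often raise genes of cell division and of fetal liver. Resident liver macrophages, the Kupffer cells, carry surface receptors such as CD163 and TIMD4.

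Total counts were 21729628 for VEH replicate 4, 19434877 for VEH replicate 6, 7751823 for TBT replicate 4 and 21920649 to 27563960 for the adenomas, so the errors of low genes were widest in TBT replicate 4. That library also held 26920 CPM of Lars2, which encodes the mitochondrial leucyl-tRNA synthetase, against 12.0 to 73.6 CPM in the adenomas. As a check of the labelled tissue, the hepatocyte gene Alb (albumin) was at 45530 to 83540 CPM in the Ly6d-high livers and at 37720 to 82520 CPM in the adenomas. The intestinal enzyme genes Sis and Alpi were at or below 0.326 CPM in these 10 libraries. Among the other livers of 5 months, which serve as reference, 1 TBT library (replicate 2) carried 668 CPM of Sis, so values that rest on that group are also given without it where they move. Adenoma replicate 7 stood apart from the other adenomas, with 16.9 CPM of Ly6d and 5.47 CPM of the proliferation gene Mki67. Results with and without these libraries are given beside the counts they touch. In bulk tissue, fewer cells of a type and less RNA per cell cannot be told apart.

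Across 11971 genes, the 3 Ly6d-high livers lay nearer to the adenomas than to any other set of livers. The Euclidean distance on log2 CPM between a Ly6d-high liver and an adenoma had a median of 76.7 over 21 pairs (61.8 to 90.4). Between these livers and the other 8 livers of 5 months it was 106.8 over 24 pairs (79.1 to 154), and between them and the 11 livers of 10 months it was 103 over 33 pairs (87.8 to 126.6). Distances among the 3 livers themselves were 57.6 to 70.9, and those among the adenomas were 45.7 to 99.6 with a median of 58.2. Among the adenomas alone, VEH replicate 4 and VEH replicate 6 were nearest to replicate 6, and TBT replicate 4 to replicate 5. Each was nearer still to another Ly6d-high liver. The VEH livers were 57.6 apart, against 61.8 and 68.6 to adenoma replicate 6. TBT replicate 4 was 69 from VEH replicate 4 and 69.2 from adenoma replicate 5. The first principal component placed the Ly6d-high livers at 37.6 to 65.2, within the adenomas' range of 18.6 to 84.0, while every other liver but the 5-month TBT replicate 2, at 3.23, lay below 0. On the second component the 3 livers lay at -30.0 to -21.0 and the adenomas at 0.91 to 8.45. Livers of 10 months lay at 6.96 to 20.9 on that second component, and the other livers of 5 months at -73.8 to 17.1.

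**Figure D1:**
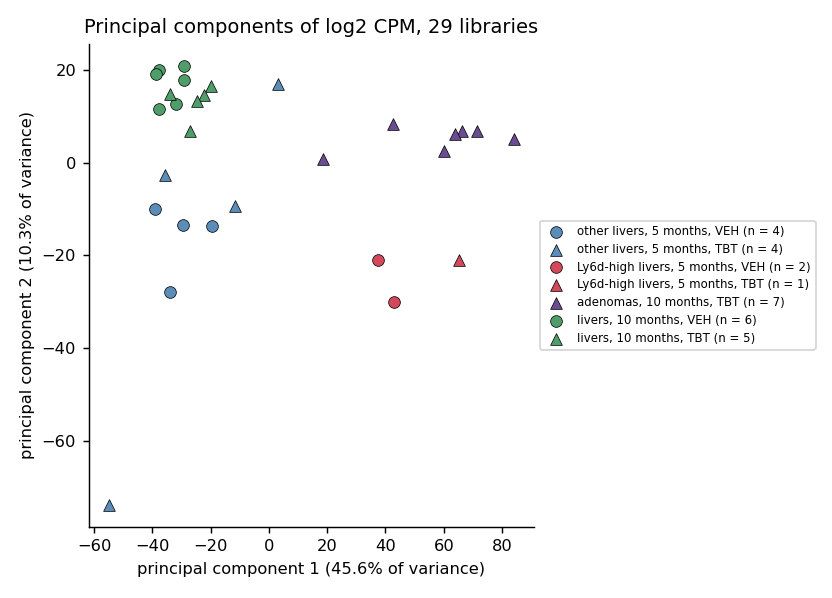
Principal components of log2 CPM over 11971 genes for all 29 libraries, with component 1 (45.6% of variance) on the x axis and component 2 (10.3%) on the y axis; colours give the 4 sets of libraries and shapes the exposure arm. The 3 Ly6d-high livers share the adenomas' range on component 1 and lie below every adenoma on component 2.

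Genes defined as changed in adenomas without any 5-month library showed where each of the 3 livers stood. In the 7 adenomas against the 5 TBT livers of 10 months, 5258 of 13365 genes passed edgeR's quasi-likelihood test at an adjusted p of 0.05 (39.3%), and 1696 of those higher and 269 of those lower in adenomas differed at least 2-fold. On the higher genes, the Ly6d-high livers lay a median of 0.75 above the other 5-month livers on the log2(CPM + 1) scale (SD 0.24, n = 3), while the adenomas lay 0.97 above the TBT livers of 10 months. On the lower genes, the medians were -1.06 (SD 0.05, n = 3) and -1.22. The 3 libraries were not equal on the higher genes, at 0.59 for VEH replicate 4, 0.64 for VEH replicate 6 and 1.03 for TBT replicate 4. All 3 livers lay above all 8 other 5-month livers on 635 of the 1696 genes (37.4%, against 7.82% of all genes tested) and below them on 140 of the 269 (52%, against 5.81%). Without TBT replicate 2 in the reference, the first share was 51.2%. The share of all genes without that library was not computed, and 7.82% is not its match. These values describe the contrast by which the libraries were picked and carry no test.

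The lipid-laden macrophage markers Gpnmb, Trem2 and Mmp12 and the gene Lrtm2 overlapped between the groups. Gpnmb, which encodes a membrane glycoprotein of lipid-laden macrophages, was at 26.7, 87.4 and 36.9 CPM in VEH replicate 4, VEH replicate 6 and TBT replicate 4, while the adenomas ran from 10.2 to 48.1 CPM with a median of 27.0 CPM. The ranges overlapped, with VEH replicate 6 above every adenoma, and the other 19 livers of the series were at or below 1.43 CPM. Its log2 fold change, Ly6d-high livers minus adenomas, was 0.86 (SE 0.51, adjusted p = 0.401, edgeR). Trem2, a lipid receptor of the same macrophages, was at 9.87, 10.9 and 13.4 CPM against 4.28 to 13.0 CPM, and the protease gene Mmp12 was at 7.503, 14.2 and 14.7 CPM against 8.16 to 25.5 CPM. Of 21 lipid-associated and scar-associated macrophage markers, edgeR called 0 and 11 had a positive fold change. The log2 fold changes ran from -1.8 to 0.86. All 3 livers lay below every adenoma on 1 marker, and DESeq2 called 1 lower. The list's summed level was 2947 to 3060 CPM in the 3 livers and 1931 to 4130 CPM in the adenomas. In the other 5-month livers it was 1804 to 4233 CPM. Lrtm2, a leucine-rich repeat protein gene nearly silent in the other livers, was at 9.68, 16.4 and 9.25 CPM compared with 8.36 to 27.7 CPM in the adenomas. For Ly6d itself the adenomas ran from 16.9 to 436 CPM with a median of 226 CPM, so the 3 livers lay within that range.

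The cell division genes on the list used here overlapped between the groups. Mki67 was at 37.1 and 35.9 CPM in VEH replicate 4 and TBT replicate 4 and at 10.7 CPM in VEH replicate 6, while the adenomas ran from 5.47 to 73.4 CPM with a median of 41.98 CPM. Top2a, the topoisomerase that untangles replicated DNA, was at 25.2, 12.8 and 17.6 CPM against 3.67 to 40.3 CPM. Among 38 cell cycle genes tested, 0 passed in either direction with edgeR over all genes, and the median log2 fold change was -0.40 beside a median of -0.012 over all genes. At an unadjusted p under 0.05 there were 2, both lower in the 3 livers, and DESeq2 and limma-voom called 0. Of the 38 fold changes, 6 were positive. Outside the list, the thymidine kinase gene Tk1 was called lower in the 3 livers by edgeR (log2 fold change -0.82). The summed level of these genes was 166 to 389 CPM in the 3 livers and 86.2 to 527 CPM in the adenomas.

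The list of liver tumour and oncofetal genes held 38 tested members. EdgeR called 1 higher in the Ly6d-high livers and 0 lower, beside 0.564% and 0.337% of all genes. The log2 fold changes ran from -4.73 to 1.75 (median -0.33), and 12 were positive. At an unadjusted p under 0.05, 2 were higher and 5 lower. DESeq2 called 1 higher and 3 lower, limma-voom 1 higher, and the fit of all 29 libraries 2 lower. The gene called higher by edgeR was Mmd2, a member of the progestin and adipoQ receptor family. It was at 43.5, 54.4 and 62.2 CPM in VEH replicate 4, VEH replicate 6 and TBT replicate 4, with 12.9 to 37.3 CPM in the adenomas (log2 fold change 1.41, SE 0.25, adjusted p = 0.0326). The groups did not overlap. Afp, the fetal plasma protein alpha-fetoprotein, was at 1.67, 1.69 and 13.0 CPM against 3.52 to 25.6 CPM, so both VEH livers lay below every adenoma while TBT replicate 4 lay among them (log2 fold change -0.81, SE 0.87, adjusted p = 0.654). Spp1, which encodes the secreted glycoprotein osteopontin, was at 99.6, 239 and 320 CPM against 126 to 746 CPM (adjusted p = 0.574). Sox4, Ddr1 and Prom1, a transcription factor, a collagen receptor and a stem cell surface gene, had log2 fold changes of -0.18, -0.01 and 0.67 with standard errors of 0.43 to 0.44.

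Some genes of mature hepatocytes and Kupffer cells that were lower in adenomas than in other livers had low values in the Ly6d-high livers as well. For Hsd3b5, a male-biased gene of steroid metabolism, the 3 livers held 1.44, 0.462 and 0.544 CPM and the adenomas 0.383 to 14.3 CPM, compared with 79.4 to 374 CPM in the other livers of both ages. Cyp2e1, a cytochrome P450 of hepatocytes around the central vein, was at 1089, 1376 and 737 CPM compared with 582 to 5444 CPM in the adenomas. Glul, the glutamine synthetase of the last hepatocyte layer around that vein and a target of beta-catenin, was at 286, 441 and 195 CPM. In the adenomas Glul ran from 231 to 1672 CPM with a median of 331 CPM (log2 fold change -0.84, SE 0.65, adjusted p = 0.523). Cd163, the haemoglobin scavenger receptor of Kupffer cells, was at 1.02, 2.15 and 1.52 CPM compared with 0.128 to 1.21 CPM in the adenomas, and at 12.1 to 43.6 CPM in the other livers. Timd4, another Kupffer cell receptor, was at 0.695, 1.85 and 0.109 CPM against 0.160 to 0.641 CPM. These receptors do not stand for the whole Kupffer list. Of its 17 genes, 7 were called lower and 0 higher in adenomas than in the TBT livers of 10 months. Over all genes of that comparison, 17.2% were called lower and 22.2% higher. The Kupffer list's summed level was 920 to 1206 CPM in the 3 livers and 672 to 1178 CPM in the adenomas. In the other livers it was 736 to 1410 CPM at 5 months and 897 to 1220 CPM at 10 months.

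**Figure D2:**
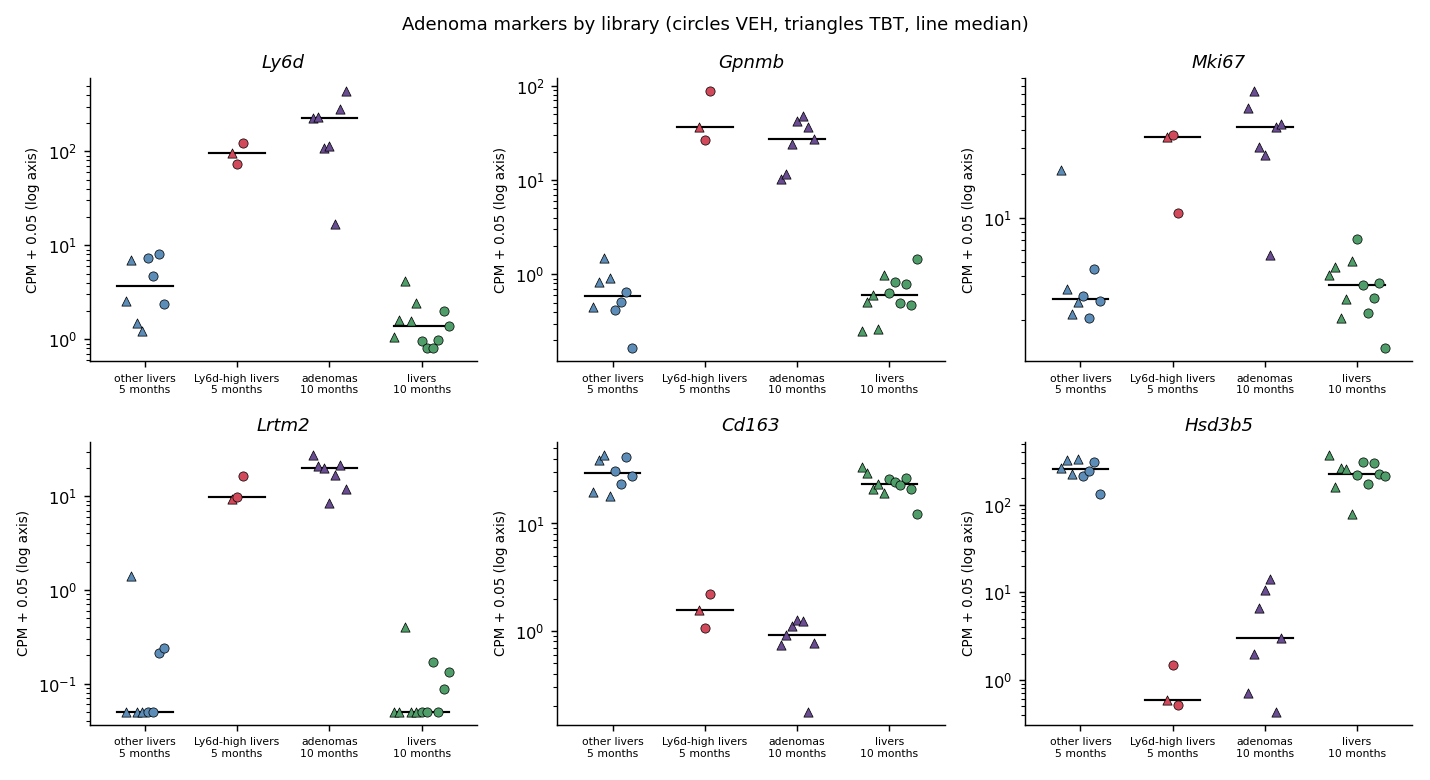
Level of 6 genes in every library on a log axis (CPM + 0.05), by set of libraries; circles are VEH, triangles TBT and the line is the median of the set. The 3 Ly6d-high livers (26.7 to 87.4 CPM of Gpnmb, 1.02 to 2.15 CPM of Cd163) lie apart from the other livers on every gene shown but Mki67. There VEH replicate 6 (10.7 CPM) is below the 5-month TBT replicate 2 (21.2 CPM), the library that carried Sis. Without that library the highest other 5-month liver is at 4.43 CPM and the highest 10-month liver at 7.07 CPM.

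A small share of genes was called between the Ly6d-high livers and the adenomas. Of 13664 genes tested, 123 passed edgeR's quasi-likelihood test at an adjusted p of 0.05 (0.900%), 77 higher in the 3 livers (0.564%) and 46 lower (0.337%), and 2596 had an unadjusted p under 0.05. All 3 livers lay above all 7 adenomas on 487 genes (3.56%) and below them on 655 genes (4.79%). The number of calls rested on single libraries. It was 3 without VEH replicate 6 and 41 without VEH replicate 4, and leaving out adenoma replicates 1, 3, 5, 11 or 12 gave 38, 64, 41, 68 and 58. Without adenoma replicate 7 the count was 342, of which 179 were higher, and without TBT replicate 4 it was 116, with 63 of the 123 among them. DESeq2 called 976 genes, limma-voom 75, and a fit of all 29 libraries, which shares 1 estimate of spread, 1169. The 3 genes called in every fit that left out 1 library were Apol7a, Nox4 and 1110008P14Rik, and every other call between these groups was lost without VEH replicate 6.

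Part of the acute phase genes was higher in the Ly6d-high livers, among them both metallothioneins. Among 31 acute phase genes tested, 12 were called higher and 0 lower, and 29 had a positive fold change. Of all genes tested, 0.564% were called higher and 0.337% lower. All 3 livers lay above every adenoma on 9 of the 31, beside 3.56% of all genes. The median log2 fold change of the list was 1.49, beside -0.012 for all genes tested. Mt1 was at 610, 1493 and 453 CPM in VEH replicate 4, VEH replicate 6 and TBT replicate 4, while the adenomas ran from 10.3 to 177 CPM with a median of 36.7 CPM. The groups did not overlap, and the log2 fold change was 3.92 (SE 0.70, adjusted p = 0.0357). Mt2 was at 58.7, 101 and 42.1 CPM against 0.958 to 17.2 CPM (log2 fold change 3.76, SE 0.66, adjusted p = 0.0357). In both genes adenoma replicate 7 was the highest adenoma. Mt1 and Mt2 lie side by side on chromosome 8 (GRCm38, 94179082 to 94180327 and 94172664 to 94173568, GENCODE M21).

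The promoters of the genes that led this group are shown because metallothionein genes are known to respond to metals through short response elements bound by MTF1, and acute phase genes to cytokines through STAT3. The 4 shown or named are the acute phase genes called higher, with groups that did not overlap, that had the largest fold changes. Windows of 300 bases, from 250 before to 50 after the start site, were taken from RefSeq (GRCm38.p6) and printed 5′ to 3′. In Mt1 (chr8:94178839-94179138, plus strand) and Mt2 (chr8:94172368-94172667, plus strand) capitals mark TGCACNC or TGCGCNC on either strand, the core of the metal response element. In Apcs (chr1:172895005-172895304, minus strand) capitals mark TTC and GAA with any 3 bases between, a STAT site, which reads the same on both strands.
Mt1: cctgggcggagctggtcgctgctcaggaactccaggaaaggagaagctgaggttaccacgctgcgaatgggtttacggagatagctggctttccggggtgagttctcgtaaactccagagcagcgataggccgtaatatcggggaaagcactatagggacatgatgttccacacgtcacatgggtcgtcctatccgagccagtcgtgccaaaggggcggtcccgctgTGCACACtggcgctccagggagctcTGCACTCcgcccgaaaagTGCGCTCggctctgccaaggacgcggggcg
Mt2: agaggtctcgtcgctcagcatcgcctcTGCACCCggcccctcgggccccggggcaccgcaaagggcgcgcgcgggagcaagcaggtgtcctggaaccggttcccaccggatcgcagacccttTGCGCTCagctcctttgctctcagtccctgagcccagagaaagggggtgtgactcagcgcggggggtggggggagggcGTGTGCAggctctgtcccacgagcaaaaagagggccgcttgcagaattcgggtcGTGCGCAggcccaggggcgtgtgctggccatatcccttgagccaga
Apcs: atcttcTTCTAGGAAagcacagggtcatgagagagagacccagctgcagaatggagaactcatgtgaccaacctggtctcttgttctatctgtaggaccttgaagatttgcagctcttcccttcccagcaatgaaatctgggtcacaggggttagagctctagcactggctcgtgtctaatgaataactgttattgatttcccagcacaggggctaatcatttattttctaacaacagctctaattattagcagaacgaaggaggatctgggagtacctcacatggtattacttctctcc
The metal response core matched 3 times in Mt1 and 4 times in Mt2. At least 1 match stood in 25.7% and at least 3 matches in 1.97% of 32851 promoter windows of this length. The STAT site matched once in Apcs and not in the window of Lrg1, and 8.3% of windows held it. A match is a description of letters and not a site shown to be used.

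Genes of secreted acute phase proteins were called higher as well. Apcs, the serum amyloid P component, was at 221, 616 and 176 CPM in VEH replicate 4, VEH replicate 6 and TBT replicate 4, compared with 50.5 to 140 CPM in the adenomas (log2 fold change 2.07, SE 0.37, adjusted p = 0.0343). Lrg1, a leucine-rich glycoprotein of plasma, was at 904, 1455 and 390 CPM against 175 to 305 CPM (log2 fold change 1.96, SE 0.31, adjusted p = 0.0189). Serpina3n, a serine protease inhibitor, was at 1041, 1622 and 801 CPM against 224 to 473 CPM (log2 fold change 1.91, SE 0.25, adjusted p = 0.00787). All 3 of these genes separated the groups, and VEH replicate 6 was the highest library in each. Hpx, the haem carrier hemopexin, was at 18210, 28540 and 12590 CPM against 4036 to 8741 CPM (log2 fold change 1.63, SE 0.28, adjusted p = 0.0239).

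Both serum amyloid A genes were called although their groups overlapped. Saa2 was at 2968 and 6055 CPM in VEH replicates 4 and 6 but at 39.9 CPM in TBT replicate 4, within the 23.9 to 135 CPM of the adenomas (log2 fold change 5.55, SE 0.97, adjusted p = 0.0357). Saa1 followed the same order, at 2827, 6035 and 57.0 CPM against 52.9 to 206 CPM. The 3 chains of fibrinogen, the clotting protein, were called too, with log2 fold changes of 1.51 for Fga, 1.66 for Fgb and 1.43 for Fgg and adjusted p-values of 0.0344, 0.0414 and 0.0487, and TBT replicate 4 was again the lowest of the 3 livers in each. Lbp, the lipopolysaccharide binding protein, was also called (1.07, adjusted p = 0.0487). Socs3, the feedback inhibitor of cytokine signalling, separated the groups at 22.8, 114 and 18.2 CPM against 6.24 to 13.7 CPM without passing (log2 fold change 2.33, SE 0.48, adjusted p = 0.0539). Crp, Hamp and Hp differed by 0.32, 1.08 and 1.37 on the log2 scale without passing (adjusted p = 0.418, 0.478 and 0.112).

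Fgl1, a secreted fibrinogen-like protein of hepatocytes outside the list, was at 1034, 2121 and 361 CPM against 137 to 276 CPM (log2 fold change 2.62, SE 0.39, adjusted p = 0.017). The number of acute phase genes called fell to 0 without VEH replicate 6 and to 2 without VEH replicate 4, and was 2 to 3 without adenoma replicate 1, 3, 5, 11 or 12 and 7 without adenoma replicate 6. Without TBT replicate 4 it was 18. The single TBT liver against the 7 adenomas, a comparison within 1 exposure arm whose spread comes from the adenomas alone, gave 0 called and a list median of -0.22 in place of 1.49. Without VEH replicate 6 the median was 0.89, so the size of the list's median rests on the VEH livers and its sign does not hold in the TBT liver alone. Limma-voom called 3 of the list and the fit without a filter on low counts 6.

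**Figure D3:**
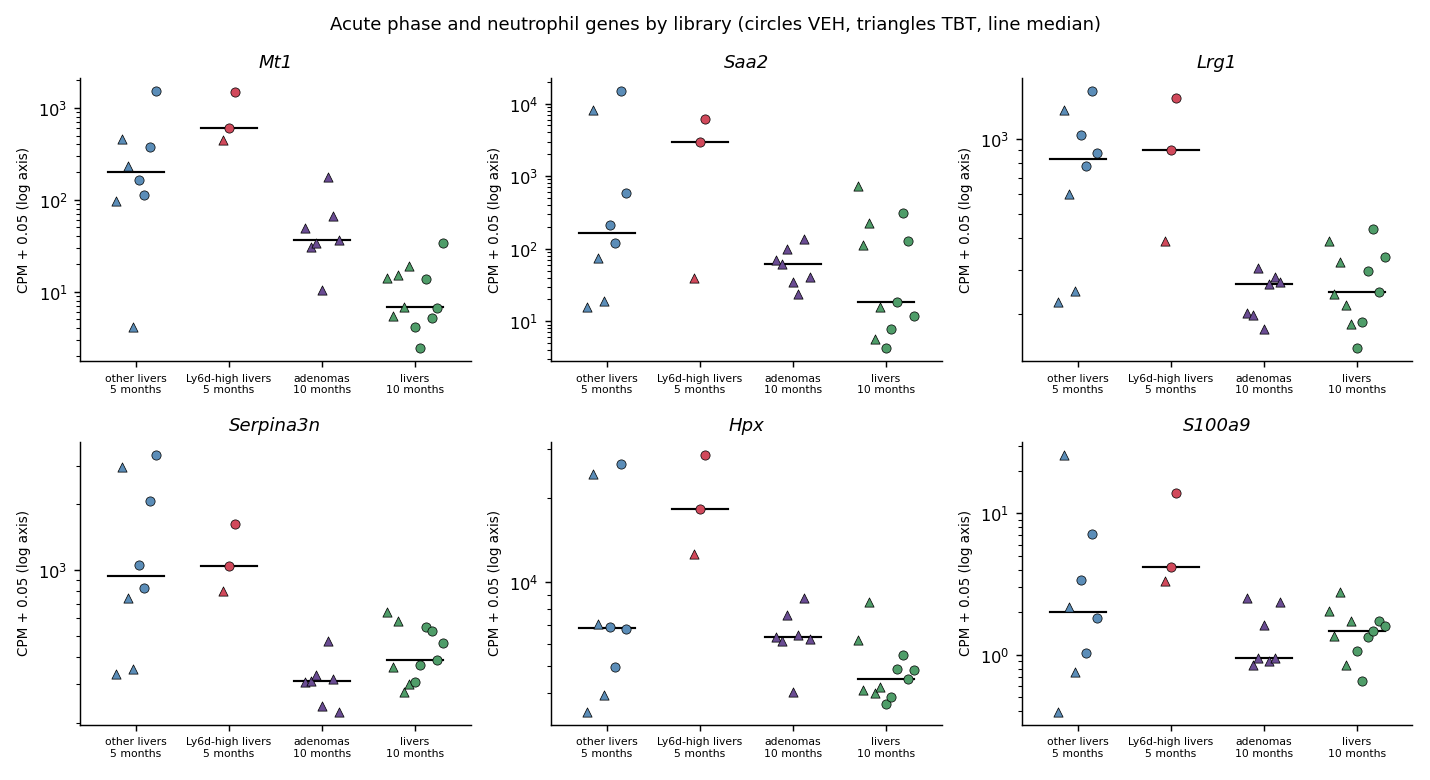
Level of 5 acute phase genes and the neutrophil gene S100a9 in every library on a log axis (CPM + 0.05), by set of libraries; circles are VEH, triangles TBT and the line is the median of the set. Mt1, Lrg1, Serpina3n, Hpx and S100a9 lie above every adenoma in all 3 Ly6d-high livers, while Saa2 of TBT replicate 4 (39.9 CPM) lies among the adenomas and the other 5-month livers span a wide range.

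Some markers of neutrophils were higher in the Ly6d-high livers too. Of 14 markers in the table, 7 were expressed enough to be tested, and 4 were called higher and 0 lower (median log2 fold change 2.05). Over all genes tested, 0.564% were called higher. A gene could pass the filter on low counts through the 3 livers alone, which favours markers high in them. With no such filter all 14 were tested, 3 were called higher and 0 lower, and the median was 2.22. The summed level of the 14 markers was 18.3 to 44.8 CPM in the Ly6d-high livers and 6.41 to 11.7 CPM in the adenomas. In the other 5-month livers it was 4.25 to 102.8 CPM. The TBT liver alone against the adenomas had a neutrophil list median of 1.28, beside -0.22 for the acute phase list. S100a9, a subunit of the antimicrobial protein calprotectin, was at 4.12, 13.9 and 3.26 CPM in VEH replicate 4, VEH replicate 6 and TBT replicate 4, against 0.796 to 2.47 CPM (log2 fold change 2.38, SE 0.48, adjusted p = 0.0453). Its partner S100a8 was at 1.34, 6.92 and 1.63 CPM against 0.4926 to 1.12 CPM (adjusted p = 0.0545). Cxcr2, the receptor for neutrophil chemokines, was at 1.204, 1.90 and 0.979 CPM against 0.189 to 0.606 CPM (log2 fold change 2.05, SE 0.39, adjusted p = 0.0357). The protease gene Mmp8 was at 1.11, 1.54 and 0.762 CPM against 0.0854 to 0.362 CPM (log2 fold change 2.62, SE 0.45, adjusted p = 0.0239). Csf3r, the receptor for the growth factor G-CSF, was at 4.77, 6.00 and 6.42 CPM against 2.13 to 3.56 CPM (log2 fold change 0.99, SE 0.20, adjusted p = 0.0472). These levels are low, and Ly6g, a defining surface marker, was at 0.0513 to 0.185 CPM in the 3 livers and at or below 0.0319 CPM in the adenomas.

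Red blood cell genes had a summed level of 211 to 753 CPM in the Ly6d-high livers and 145 to 321 CPM in the adenomas, with 0 of 10 called by edgeR. At an unadjusted p under 0.05, 8 were higher and 1 lower, DESeq2 called 5 higher and 1 lower, and limma-voom called 0. Hbb-bs, an adult beta globin gene, was at 75.6, 416 and 448 CPM against 32.1 to 153 CPM (log2 fold change 2.37, SE 0.56, adjusted p = 0.0674). The part of blood cells in the acute phase result was not tested. The number of neutrophil markers called was 0 without VEH replicate 6, 0 without adenoma replicate 5, 1 without VEH replicate 4 or adenoma replicate 1, 11 or 12, and 2 without adenoma replicate 3 or 6. It was 6 without TBT replicate 4 and 6 without adenoma replicate 7. Marco, a scavenger receptor of resident macrophages, was the 1 called member among 17 Kupffer cell genes, beside 0.900% of all genes tested. It stood at 6.02 and 47.9 CPM in VEH replicates 4 and 6 and at 1.74 CPM in TBT replicate 4, which lay within the adenomas' 0.415 to 2.01 CPM (log2 fold change 4.06, SE 0.78, adjusted p = 0.0462).

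Hepatocyte genes of other functions were among the 77 higher genes. Sds and Sdsl, which encode serine dehydratase and its homologue in amino acid breakdown, were the 2 called of 22 periportal genes. Of all genes tested, 0.564% were called higher. Sds was at 397, 416 and 264 CPM in VEH replicate 4, VEH replicate 6 and TBT replicate 4 compared with 125 to 209 CPM in the adenomas (log2 fold change 1.12, SE 0.18, adjusted p = 0.0225). Sdsl was at 53.8, 61.3 and 34.6 CPM against 14.7 to 27.4 CPM (log2 fold change 1.26, adjusted p = 0.0239). Hyou1, a chaperone of the endoplasmic reticulum, was at 311, 241 and 178 CPM against 88.1 to 151 CPM (log2 fold change 1.02, SE 0.19, adjusted p = 0.0357), and 1 of 25 stress response genes was called. Other proteins of the secretory route were called with smaller differences and were chosen here after their values were seen. They were Sec61b and Sec61a1 of the translocation channel (log2 fold changes 0.85 and 0.65), Ddost of the glycosylation complex (0.63) and the prolyl isomerase gene Ppib (0.66).

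Mmrn1, which encodes the secreted platelet and endothelial protein multimerin, was at 7.32, 5.28 and 12.2 CPM in the 3 livers against 0.482 to 3.10 CPM in the adenomas (log2 fold change 2.49, SE 0.48, adjusted p = 0.0414). Fbln1, a matrix protein gene, was at 7.69, 9.90 and 16.0 CPM against 1.69 to 5.20 CPM (log2 fold change 1.96, SE 0.31, adjusted p = 0.0189). TBT replicate 4 was the highest of the 3 livers in both, whereas it was the lowest of the 3 in each acute phase gene called. Of 34 stellate cell and fibrosis genes, 0 were called by edgeR and the median log2 fold change was 0.36, while 6 were higher at an unadjusted p under 0.05, 1 with DESeq2 and 0 with limma-voom. The co-chaperone gene Dnajc12, the tight junction gene Marveld3 and the synaptotagmin gene Syt12 were called with log2 differences of 2.44, 2.01 and 1.97 (edgeR adjusted p 0.0239, 0.0408 and 0.0189).

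The 46 genes that were lower in the Ly6d-high livers included enzymes of steroid metabolism. Apol7a, a member of the apolipoprotein L family (chromosome 15, 77388219 to 77399110), was at 27.1, 33.8 and 38.7 CPM in VEH replicate 4, VEH replicate 6 and TBT replicate 4, with 84.3 to 116 CPM in the adenomas. The groups did not overlap and the log2 fold change was -1.54 (SE 0.15, adjusted p = 0.00187). Nox4, an NADPH oxidase that makes hydrogen peroxide, was at 21.9, 11.0 and 19.2 CPM against 39.4 to 46.8 CPM (log2 fold change -1.26, SE 0.18, adjusted p = 0.0117). Hsd3b2, an enzyme of steroid synthesis, was at 12.8, 5.18 and 8.27 CPM against 17.5 to 38.6 CPM (log2 fold change -1.58, SE 0.31, adjusted p = 0.0435).

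Aldo-keto reductases of the Akr1c and Akr1d subfamilies, which reduce steroids and bile acid intermediates, were lower in 5 of 8 members. This family was picked after its values were seen. Beside the 5 called lower, 0 were called higher, all 8 log2 fold changes were negative and their median was -1.04. Of all genes tested, 0.337% were called lower. Akr1d1, the 5-beta reductase of bile acid synthesis, was at 85.1, 93.9 and 86.4 CPM against 171 to 246 CPM (log2 fold change -1.17, SE 0.16, adjusted p = 0.0102). Akr1c19 was at 21.8, 31.7 and 38.2 CPM against 75.3 to 143 CPM (log2 fold change -1.59, SE 0.24, adjusted p = 0.017). Akr1c13, Akr1c14 and Akr1c20 had log2 fold changes of -0.95, -1.003 and -1.08. Several Akr1c genes are near-identical neighbours, so the counting of reads may be shared between them.

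Carboxylesterases and conjugating enzymes were also among the lower genes. Ces1g was at 77.9, 54.3 and 103 CPM against 180 to 691 CPM (log2 fold change -2.29, SE 0.43, adjusted p = 0.0357), and Ces1d, the 1 called of 21 pericentral genes, was at 204, 154 and 189 CPM against 315 to 690 CPM (log2 fold change -1.44, SE 0.26, adjusted p = 0.032). Both belong to a cluster of like esterases. Of 28 cytochrome P450 and conjugation genes 2 were lower and 0 higher (median log2 fold change -0.57), and 8 lay below every adenoma in all 3 livers, beside 4.79% of all genes. Of all genes tested, edgeR called 0.337% lower and 0.564% higher. DESeq2 and the fit of all 29 libraries each called 10 lower and 1 higher, limma-voom called 1 lower, and edgeR called 0 without VEH replicate 6, 1 without VEH replicate 4, TBT replicate 4 or adenoma replicate 11, and 5 lower and 1 higher without adenoma replicate 7. The 2 called by edgeR in all 10 libraries were the flavin monooxygenase Fmo1 (-0.90, adjusted p = 0.017) and the sulfotransferase Sult1b1 (-1.50, adjusted p = 0.0299). Cyp2a5, a P450 that oxidises coumarin, was at 290, 88.3 and 239 CPM against 427 to 1535 CPM without passing (log2 fold change -2.19, SE 0.52, adjusted p = 0.0639).

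NRF2 is the transcription factor that induces glutathione and export enzymes under oxidative stress. Of 28 NRF2 target genes 2 were lower in the Ly6d-high livers and 0 higher, 27 had a negative fold change, and the list's median was -0.78. DESeq2 and the fit of all 29 libraries each called 12 lower and limma-voom 1. With edgeR the count was 0 without VEH replicate 4 or 6, 6 without adenoma replicate 7, and 1 without any other single library. Abcc3, an exporter of bile acid and drug conjugates, was at 127, 109 and 128 CPM against 212 to 434 CPM (log2 fold change -1.44, SE 0.23, adjusted p = 0.0189). Gstm4, a glutathione transferase gene, was at 28.1, 25.6 and 19.8 CPM against 31.7 to 74.6 CPM (log2 fold change -1.12, SE 0.22, adjusted p = 0.0428). Nqo1, a quinone reductase, was at 13.0, 15.6 and 11.5 CPM against 17.3 to 98.8 CPM without passing (adjusted p = 0.151). Gstp2, a glutathione transferase on the list of male-biased genes, was at 33.7, 20.9 and 14.1 CPM against 57.8 to 138 CPM (log2 fold change -1.96, SE 0.32, adjusted p = 0.0239), and it has a near-identical neighbour, Gstp1, with a log2 fold change of 0.43.

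Other lower genes had no list in common. Omd, the matrix protein osteomodulin, was at 1.58, 0.872 and 1.63 CPM against 5.14 to 14.7 CPM (log2 fold change -2.74, SE 0.35, adjusted p = 0.00696). Cib3, a calcium-binding protein gene, was at 7.36, 7.80 and 9.90 CPM against 17.2 to 43.6 CPM (log2 fold change -1.76, SE 0.30, adjusted p = 0.0239). The guanylate-binding proteins Gbp10 and Gbp6, members of a family induced by interferon, fell by 2.09 and 1.78 on the log2 scale (adjusted p = 0.0357 and 0.0444). Of 27 genes on the interferon list 0 were called by edgeR, with a median of -0.47, while 8 were lower at an unadjusted p under 0.05, 3 with DESeq2 and 0 with limma-voom. Ncam2, a cell adhesion gene, and Car1, a carbonic anhydrase gene, had log2 differences of -1.69 and -1.99 (edgeR adjusted p 0.0167 and 0.0286). The 22 lipid droplet and PPARG genes had a median of -0.94 with 0 called by edgeR, while 8 were lower and 1 higher at an unadjusted p under 0.05, 6 were lower with DESeq2 and 0 were called with limma-voom. Pparg itself was at 6.81, 8.00 and 16.1 CPM against 9.57 to 29.5 CPM (log2 fold change -0.91, SE 0.36, adjusted p = 0.202).

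**Figure D4:**
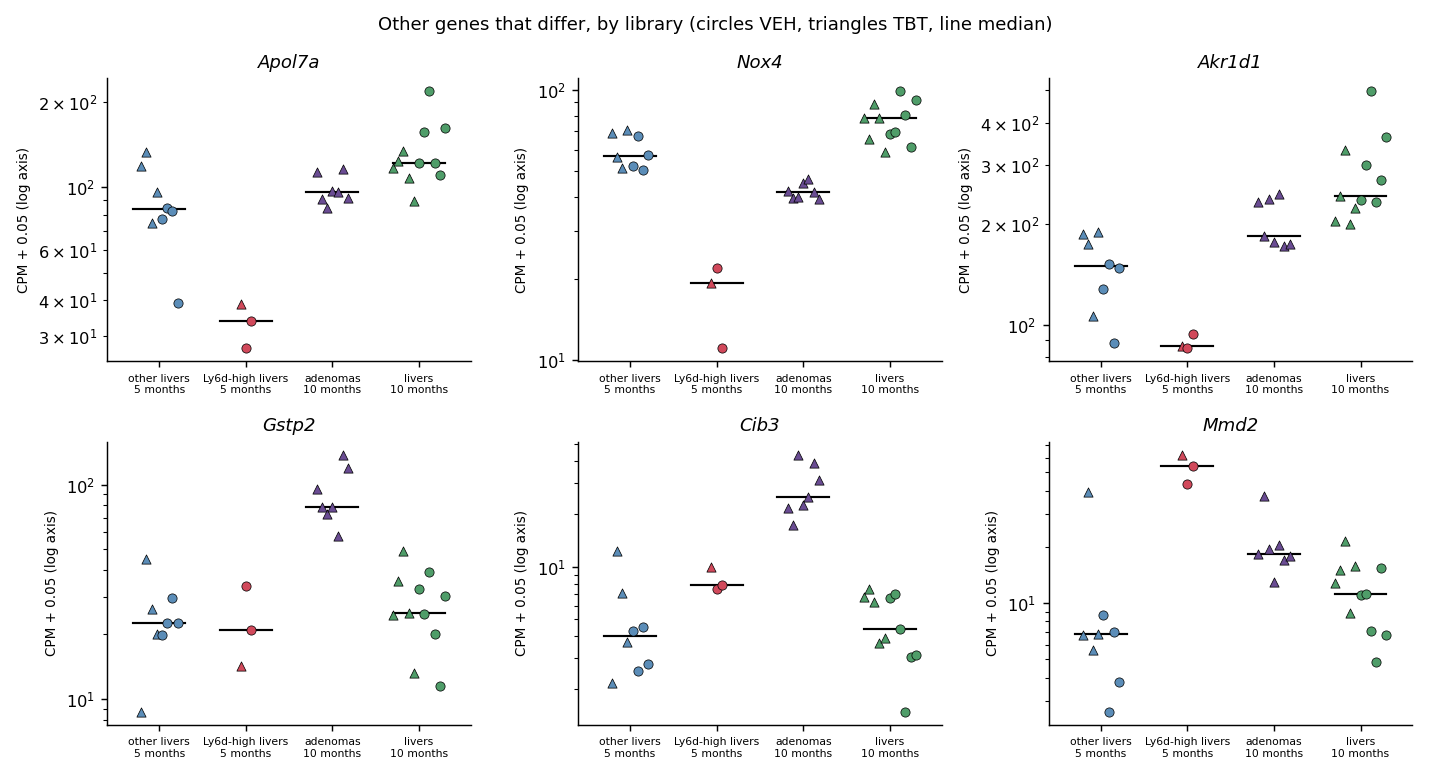
Level of 6 genes in every library on a log axis (CPM + 0.05), by set of libraries; circles are VEH, triangles TBT and the line is the median of the set. In the 3 Ly6d-high livers Apol7a, Nox4, Akr1d1, Gstp2 and Cib3 lie below every adenoma and Mmd2 above every adenoma, and Apol7a (27.1 to 38.7 CPM) and Nox4 (11.0 to 21.9 CPM) also lie below the other livers of both ages.

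Because the adenomas were older than the Ly6d-high livers, each called gene was set beside the difference between ages in the other livers. The 11 livers of 10 months and the other 8 livers of 5 months share no library with the comparison above, and the exposure arm was a term in that fit. There 2741 of 12567 genes were called (21.8%), 1301 higher (10.4%) and 1440 lower (11.5%) at 10 months. Of the 77 genes higher in the Ly6d-high livers than in adenomas, 75 were tested with age, and 50 (66.7%) were called higher at 5 than at 10 months. Of the 46 lower genes, 33 (71.7%) were called lower at 5 months. The sign of the 2 differences was the same for 69 of 75 and 43 of 46 of these genes, beside 65.4% of the 12518 genes tested in both. Unc13b was the 1 gene called in the opposite direction. Of the 3 genes called in every fit that left out a library, Apol7a and Nox4 had age log2 fold changes, 10 minus 5 months, of 0.59 and 0.36 (adjusted p = 0.0414 and 0.018).

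Acute phase genes were among those that also differed with age. Mt1 was at 4.08 to 1518 CPM in the other 5-month livers with a median of 199.5 CPM and at 2.36 to 33.4 CPM in the 10-month livers (log2 fold change, 10 minus 5 months, -4.92, SE 0.78, adjusted p = 0.000698). Lrg1 had medians of 827 and 245 CPM (log2 fold change -1.58, adjusted p = 0.00248) and Serpina3n 939 and 388 CPM (-1.75, adjusted p = 0.00481). For all 3 genes the Ly6d-high livers lay within the range of the other 5-month livers. Among lower genes, Akr1d1 was at 88.3 to 190 CPM in the other 5-month livers and at 200 to 496 CPM in the 10-month livers (log2 fold change 0.92, adjusted p = 0.00207). Akr1c19 had an age log2 fold change of 1.21 (adjusted p = 0.00419).

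**Figure D5:**
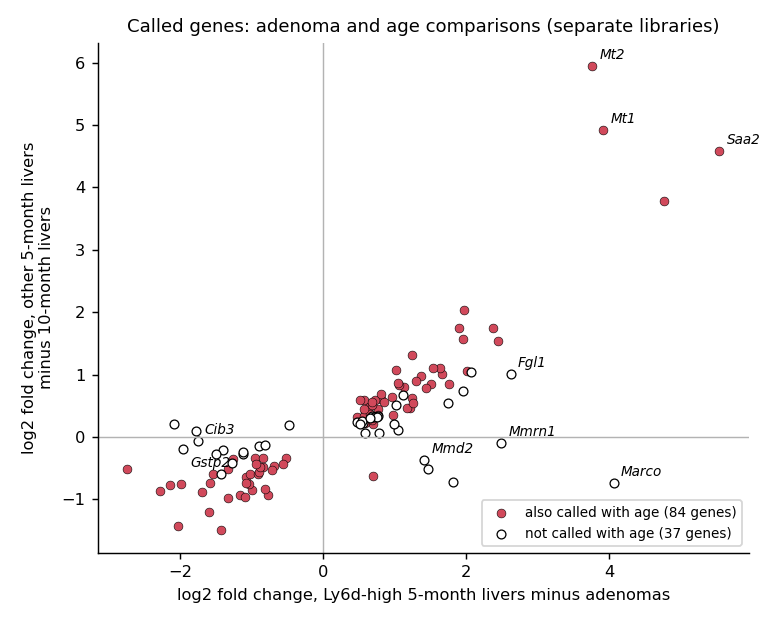
For 121 genes called between the Ly6d-high livers and adenomas and tested with age, the x axis gives that log2 fold change and the y axis the log2 fold change of the other 5-month livers minus the 10-month livers, from separate libraries; filled points are also called with age. Of the 84 filled points 83 have the same sign on both axes, and 37 points are open.

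The other 37 genes were not called with age, and a p that misses the threshold does not show that age left them alike. Mmrn1 had medians of 1.57 CPM in the other 5-month livers and 1.45 CPM in the 10-month livers (log2 fold change 0.10, SE 0.32, adjusted p = 0.861). Cib3 had medians of 3.97 and 4.35 CPM (log2 fold change 0.06, SE 0.31, adjusted p = 0.909). For Gstp2 they were 22.6 and 25.1 CPM (log2 fold change 0.19, SE 0.28, adjusted p = 0.666). Gbp6 had medians of 1.69 and 1.67 CPM and Mmd2 6.77 and 11.1 CPM (adjusted p = 0.79 and 0.51). For Gstp2, Gbp6 and Cib3 the Ly6d-high livers lay within the range of the other livers of their age, and the adenomas lay above all of these. For Cib3 that range was 2.13 to 12.2 CPM, with 17.2 CPM in the lowest adenoma. Mmrn1 and Mmd2 were higher in the 3 livers than in every library of the other sets. Others not called with age were Gbp10, Gstm4, Apcs, Fgl1, Fbln1, Marco, Csf3r and Sult1b1, and Abcc3 and Sds missed the threshold at 0.0512 and 0.0528.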

How the data were processed

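RNA from frozen liver or adenoma was purified on columns with DNase treatment and made into stranded total RNA libraries, per the labels' protocols. The deposited table holds raw read counts of 22028 genes, made by the authors with FastQC, Trim Galore, HISAT2, featureCounts and edgeR on mm10, per the submitters' processing notes, which give no versions or settings. Without a stated strand setting, reads of overlapping, antisense and near-identical genes may be shared. Symbols stored as dates (27) were restored from gene identifiers.

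Counts were tested with edgeR 4.0.16 (R 4.3.3): filterByExpr (minimum count 10, total 15), TMM scaling, robust quasi-likelihood fits, both directions, Benjamini-Hochberg adjustment over all genes at 0.05. No term for age or exposure was possible between the Ly6d-high livers and the adenomas. Levels are CPM scaled by TMM over all 29 libraries. Distances used log2 CPM (prior count 2) of genes averaging 1 CPM or more. Of the 40 gene lists' 906 entries, 893 were in the table. The members, lists and tests were chosen with earlier results of these data known. Genes named were called, had groups that did not overlap and an average of 2 CPM or more, and were the 12 largest in each direction without predicted genes, plus up to 4 called members of each list and 10 genes always named; 1 gene the rule names is not reported here. Other genes illustrate lists and were picked with their values in view. Alternatives were other scaling, filters, DESeq2 1.42.0, limma-voom (limma 3.58.1), thinning, a fit of all libraries and omission of each library. The scripts were tested on simulated counts, and 71 replicate pairs were checked for duplicates, whose lowest ratio of chi-square to degrees of freedom was 18.6.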

Additional observations from a re-analysis of the deposited data

Results flagged for a closer look

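Of 94 groups of values of 5 to 7 libraries, 17 held a library far from the rest of its own label group, and chance alone flags about 1 in 20 groups. Many of the genes were chosen for their differences, so this number is not a rate of its own. Among the TBT livers of 5 months, replicate 4 stood apart in Ly6d (94.97 CPM, next 6.941 CPM), by which it was chosen, in Gpnmb (36.88 CPM, next 1.428 CPM) and in Lars2 (26920 CPM, next 701.5 CPM). Among the VEH livers of that age, replicate 6 stood apart in Gpnmb (87.35 CPM, next 26.72 CPM) and Spp1 (239.4 CPM), replicate 4 in Mki67 (37.05 CPM, next 10.72 CPM), replicate 1 in Lars2 (195.1 CPM) and replicate 5 in its total of 33704303 counts. Among the adenomas, replicate 7 was the highest in Mt1 (176.6 CPM), Mt2 (17.17 CPM), Apcs (139.9 CPM) and Serpina3n (473.4 CPM), each a gene higher in the Ly6d-high livers. Adenoma replicate 3 was the highest in Marveld3 (3.259 CPM), Syt12 (6.782 CPM) and Mmd2 (37.32 CPM). Adenoma replicate 6 stood apart in Glul (1672 CPM, next 745.2 CPM) and adenoma replicate 1 in Akr1c19 (143.3 CPM).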

How the results depend on the processing

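The 123 calls between the Ly6d-high livers and the adenomas became 976 with DESeq2, 75 with limma-voom, 1169 in a fit of all 29 libraries and 2 where the TBT liver alone stood for the livers, and ran from 3 to 342 when 1 library was left out. All 123 were also called by DESeq2, 70 by limma-voom and 112 with all libraries. Acute phase genes called higher (12) were 6 without a filter, 3 with limma-voom, 0 for the TBT liver alone and 0 to 18 with 1 library left out. Neutrophil markers called higher (4) were 2 with limma-voom, 2 after thinning, 0 for the TBT liver alone and 0 to 6 with 1 library left out. The share of called genes that were also called with age in the same direction (68.6%) was 0% for the TBT liver alone, where 2 genes were called. On genes higher in adenomas the position was 1.026 for TBT replicate 4 alone. On lower genes it was -1.148 with a pseudocount of 0.5, -1.879 for genes changed at least 4-fold and -1.007 for VEH replicate 4 alone. The cause of these shifts was not tested. Among the 48 genes the naming rule gave besides Ly6d, 0 changed direction in a call.

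No paired analysis was possible between the Ly6d-high livers and the adenomas. They share 1 replicate number, held by a VEH liver and a TBT adenoma of different ages, so it gives no pair. For the age comparison, a fit with the replicate block called 0 genes against 2741. Only 4 numbers stood at both ages within an arm, so that fit rested on 4 pairs. So few pairs could hardly yield calls, and the 0 decides nothing. Each library's difference from the mean of its arm and age was correlated across genes between libraries of the same number (-0.097 to 0.062). The 4 pairs cannot show whether such libraries share more than a number. The shallow TBT replicate 4 (7751823 counts) limits low genes.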
